A study of Mus musculus with 8 samples.

Results

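The receptors through which Wnt proteins act on the liver were examined in mice with LPS-induced endotoxemia. The 10 genes Fzd1, Fzd4, Fzd5, Fzd6, Fzd7, Fzd8, Lrp5, Lrp6, Ryk and Ror1 were taken from a list of Wnt receptor genes by their symbols, and all 10 were found among the 23282 rows of each count table. The livers came from C57BL/6 mice described as male and 4 weeks of age. Mice of the control group had received saline, and mice of the endotoxemic group 25 mg/kg LPS by intraperitoneal injection. For the LGK974 group the sample labels name only LGK974, an inhibitor of Porcupine, the enzyme that attaches the lipid Wnt proteins need for secretion. The sequenced livers of this group came from mice given LPS at 25 mg/kg as well as LGK974 at 60 mg/kg. The inhibitor mostly preceded LPS by 2 h, and livers were taken 6 h after LPS.

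Each count is the number of 3′-end reads on a gene, and levels are given as CPM, the count scaled to library totals of equal size, after TMM normalization, which corrects for library size and composition. Because each transcript gives reads at its 3′ end only, CPM values do not scale with transcript length and were compared between genes. Of 8 libraries, endotoxemic libraries 3 and 4 were identical to libraries 1 and 2 on every row and were counted once, which left 2 libraries in each group with 9142116 to 15222439 counts. The sources used here do not say whether each library came from a separate mouse, so p-values measure only the spread between these libraries. A signal of 3 counts corresponded to a CPM between 0.197 and 0.328, which covers counting error only. The labelled sex did not hold for all libraries, as Xist had 1171 to 3115 counts in the 4 libraries of the control and endotoxemic groups but 3 and 7 in the LGK974 libraries, whereas the Y-linked gene Ddx3y had 0 counts in the former and 1755 and 1392 in the latter. A difference of the LGK974 group from either other group can therefore not be told apart from this difference.

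Wnt proteins bind the cysteine-rich domain of Frizzled receptors, which span the membrane several times, and in the β-catenin pathway they join a Frizzled to the co-receptor Lrp5 or Lrp6. The Lrp tail is then phosphorylated, the complex that destroys β-catenin is held at the membrane, and β-catenin enters the nucleus. Ryk and Ror1 are single-pass receptors of the tyrosine kinase type that bind Wnt ligands outside this route and are known for signals that do not need β-catenin. In the liver, Wnt ligands made by endothelial cells of the central vein maintain the pericentral program of the neighbouring hepatocytes.

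In the endotoxemic livers the highest gene of this family, Ryk, was lower than in the control livers, and Ror1, the lowest, was higher. Their promoters are shown because these were the called genes with a window in the RefSeq promoter table of GRCm38.p6, in which 6 of the 10 genes were found (Fzd1, Fzd4, Fzd5, Fzd7, Ryk and Ror1). The 250 bases upstream of the RefSeq start are printed 5′ to 3′ on the gene's strand (plus in both), with each CG dinucleotide in capitals. The windows lie at chr9:102834670-102834919 for Ryk and chr4:100095541-100095790 for Ror1. GENCODE places the start of Ryk at 102834917, so the last bases of its window lie within the gene as annotated there.
Ryk: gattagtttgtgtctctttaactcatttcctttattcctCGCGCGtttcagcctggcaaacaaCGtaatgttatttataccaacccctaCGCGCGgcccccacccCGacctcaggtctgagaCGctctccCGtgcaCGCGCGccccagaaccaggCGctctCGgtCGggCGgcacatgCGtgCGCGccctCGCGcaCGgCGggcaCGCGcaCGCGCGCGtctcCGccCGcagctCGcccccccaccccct
Ror1: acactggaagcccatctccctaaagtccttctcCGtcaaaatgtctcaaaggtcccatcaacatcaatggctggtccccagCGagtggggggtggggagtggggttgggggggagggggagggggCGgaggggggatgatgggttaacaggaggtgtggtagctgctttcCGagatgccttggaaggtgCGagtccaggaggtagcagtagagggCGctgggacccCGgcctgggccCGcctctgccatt

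The Ryk window holds 33 CG dinucleotides, and 4.03% of the 32851 promoter windows of the same length hold as many or more. The Ror1 window holds 8, 43.0% of all windows hold as many or more, and the median window holds 6. The other windows lay between these, with 12 in Fzd1, 17 in Fzd7, 25 in Fzd4 and 32 in Fzd5. The letters CTTTGAT and CTTTGAA, both forms of the site bound by the TCF factors of β-catenin signaling, were searched on both strands and were found in none of the 6 windows, against 3.21% and 4.46% of all windows. The GC box GGGCGG was found on either strand in 5 of the 6 windows, all but Fzd1, against 32.7% of all windows. The NF-κB consensus was found only in Fzd5, at 45 bases before the start on both strands, against 7.25% of all windows. A match is a run of letters and not a shown binding site.

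Genes in 574 of the 23282 rows did not stand where their genomic position would place them, so the rows of the 10 receptor genes were checked first. Each symbol stood on 1 row, and 0 of the 10 rows were out of genomic order. Both neighbouring rows of 9 genes were genomic neighbours, between 0 bp (Tmem135, which touches Fzd4) and 1283828 bp (Wac, above Fzd8) away. For Ror1 the row above carries the symbol Pgm2, which is now used for a gene on chromosome 5. Pgm2 is also an older name of Pgm1, which lies at 99929451 to 99987294 on chromosome 4, beside Ror1, and the row below, Ube2u, lies 34061 bp from Ror1. The counts of the 10 genes therefore stood on rows in their own genomic neighbourhood.

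The receptors were not equally abundant. In the control livers Ryk had the highest level, at a mean of 80.7 ± 20.8 CPM (SD, n = 2), followed by Lrp6 at 45.5 ± 7.22, Fzd8 at 17.6 ± 4.25 and Lrp5 at 11.1 ± 1.26. The levels of these 4 genes did not overlap with those of the next gene in order. Fzd5 (7.1 ± 2.83) and Fzd4 (6.72 ± 2.15) overlapped each other, as did Fzd6 (3.07 ± 0.00629) and Fzd7 (2.94 ± 1.01), with Fzd1 (3.99 ± 0.649) between the pairs. Ror1 was last at 0.0654 ± 0.0924 CPM. Ryk and Lrp6 together held 67.8% and 73.2% of the summed counts of the 10 genes in the control, 65.4% and 72.9% in the endotoxemic and 72.9% and 79.0% in the LGK974 libraries. Ryk and Lrp6 therefore ranked first and second in every group, and the order below them differed between groups.

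**Figure D1:**
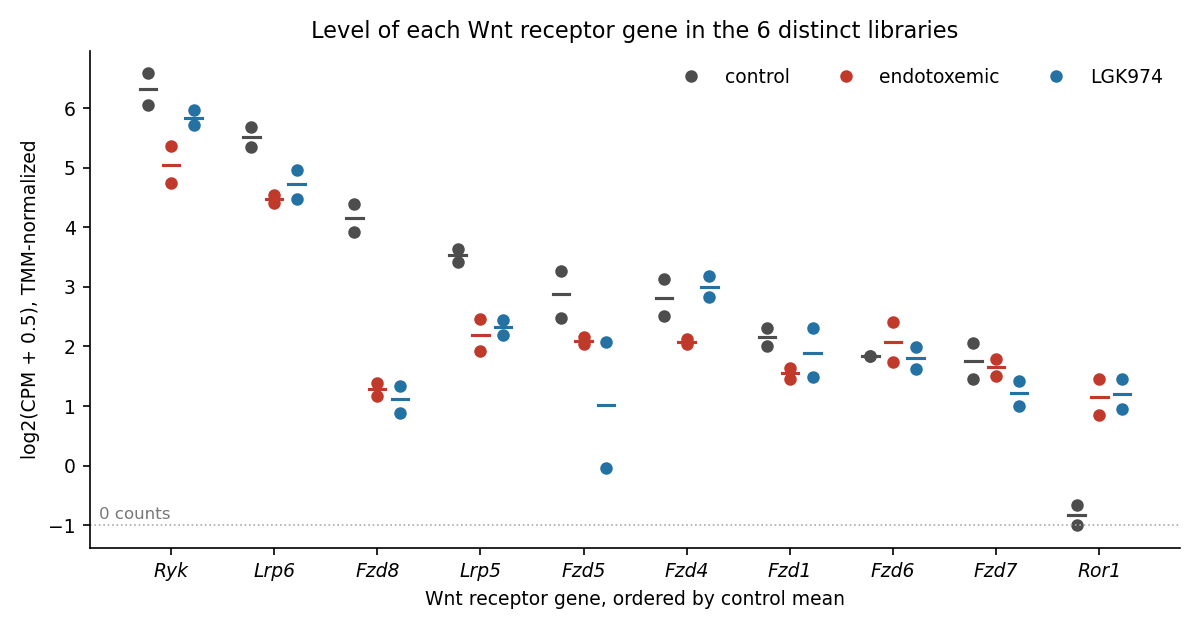
Level of the 10 Wnt receptor genes as log2 of TMM-normalized CPM plus 0.5 (vertical axis), with 1 point per library, a bar at the mean of each group of 2 and a dotted line at the value of 0 counts. Fzd1, Fzd4, Fzd5, Fzd8, Lrp5, Lrp6 and Ryk lie lower in both endotoxemic libraries than in both control libraries, and Ror1 lies higher. Of all tested genes 39.2% lay lower and 37.9% higher in this way.

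The first comparison asked how the receptor genes differed between endotoxemic and control livers. Of the 10 genes, 5 passed the threshold of 0.05 for the Benjamini-Hochberg adjusted p of edgeR's quasi-likelihood test over 12701 genes. Ror1 rose, and Fzd8, Lrp5, Ryk and Lrp6 fell. That is 1 of 10 higher and 4 of 10 lower, beside 20.4% of all tested genes called higher and 23.0% called lower, and at an unadjusted p under 0.05 there were 6 of 10, beside 6513 of all 12701 tested genes. With at least 10 counts required in every library 8 of the 10 were tested, and 0 were called higher and 4 lower. The 2 groups did not overlap for 1 gene that was higher and 7 that were lower, beside 37.9% and 39.2% of all tested genes. The median log2 fold change of the 10 genes was −0.88, and that of all tested genes was 0.01. In whole liver RNA, fewer cells of a type and less RNA per cell cannot be told apart. Without endotoxemic replicate 2 the number called was 1 (Fzd8), and without control replicate 1 it was 3.

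**Figure D2:**
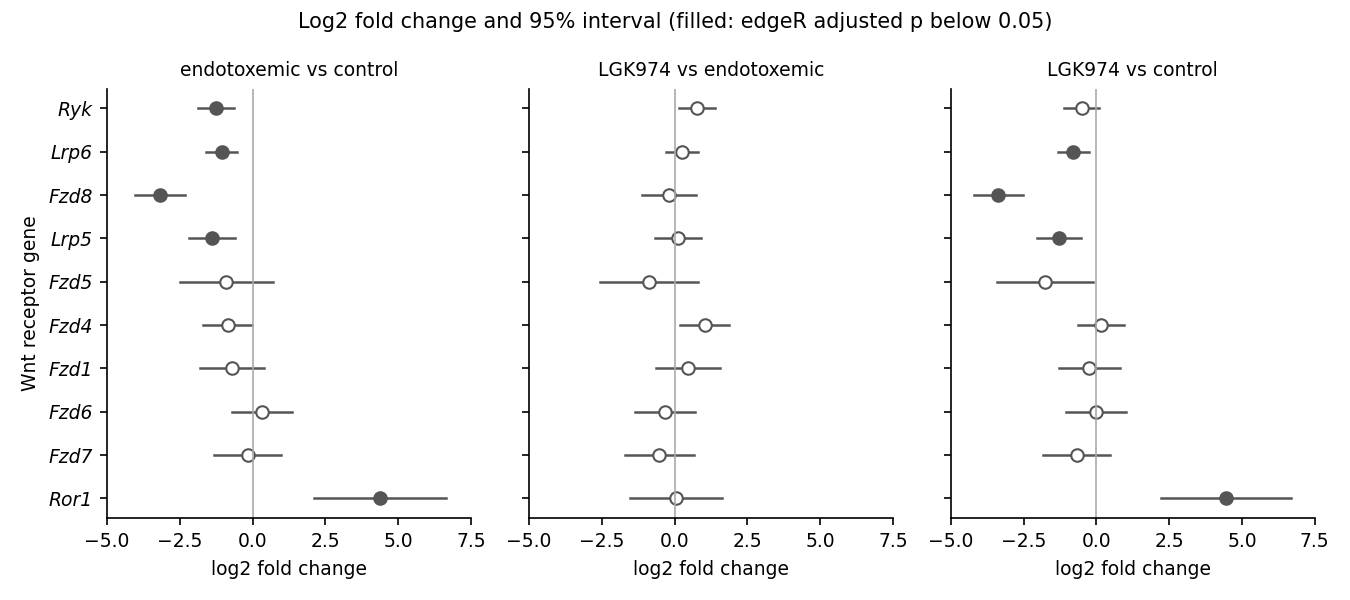
Log2 fold change (horizontal axis) of each receptor gene in the 3 comparisons, with its 95% interval as a line and a filled point where the edgeR adjusted p was below 0.05. There were 5 filled points for endotoxemic against control, 0 for LGK974 against endotoxemic and 4 for LGK974 against control.

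Among the Frizzled genes, Fzd8, at 9212163 to 9218136 on chromosome 18 (GRCm38, plus strand), had the largest difference between endotoxemic and control livers. The Wnt-binding domain of Frizzled-8 has been crystallised in complex with a Wnt protein. Fzd8 had 157 and 315 counts (14.6 and 20.6 CPM) in the control libraries, 16 and 20 (1.75 and 2.13 CPM) in the endotoxemic and 27 and 20 (2.04 and 1.35 CPM) in the LGK974 libraries. Both control libraries lay above every library of the other groups, and the endotoxemic and LGK974 libraries overlapped. The level was 9.04-fold lower in the endotoxemic than in the control group, a log2 fold change of −3.18 (SE 0.38, 95% interval −4.04 to −2.31, adjusted p = 0.000197 by edgeR). It was 10.4-fold lower in the LGK974 than in the control group (log2 −3.37, SE 0.38, edgeR adjusted p = 0.000174), and these 2 comparisons share the control libraries. Between the LGK974 and endotoxemic groups the log2 difference was −0.2, with an interval from −1.13 to 0.73 (edgeR adjusted p = 0.814). The 2 comparisons with the control group were called under all 16 alternative settings.

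Fzd4, at 89404355 to 89413134 on chromosome 7 (plus strand), encodes the receptor of the ligand Norrin in endothelial cells as well as a Wnt receptor. Its level was 5.2 and 8.23 CPM in the control, 3.6 and 3.84 in the endotoxemic and 6.64 and 8.53 in the LGK974 libraries. The endotoxemic libraries lay below all 4 others, and the control and LGK974 libraries overlapped. Compared with the control group the endotoxemic group differed by −0.86 on the log2 scale (SE 0.37, edgeR adjusted p = 0.0911), and the LGK974 group differed from the endotoxemic group by 1.03 (SE 0.37, edgeR adjusted p = 0.14), neither past the threshold. The unadjusted p of the latter was 0.0214. Between the LGK974 and control groups the difference was 0.17, with an interval from −0.62 to 0.96.

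Fzd5, at 64730558 to 64737751 on chromosome 1 (minus strand), is best known as the receptor that keeps Paneth cells of the intestine mature. Its counts were 98 and 78 in the control, 33 and 37 in the endotoxemic and 49 and 7 in the LGK974 libraries. The LGK974 libraries were far apart, at 3.7 and 0.474 CPM, and the level of the group followed from which of them was used. With both, the LGK974 group differed from the control group by −1.77 on the log2 scale (SE 0.73, edgeR adjusted p = 0.0905) and from the endotoxemic group by −0.87 (SE 0.75, edgeR adjusted p = 0.527). Without LGK974 replicate 1 these became −3.86 (edgeR adjusted p = 0.000431) and −2.96 (edgeR adjusted p = 0.00798), and without LGK974 replicate 2 they became −0.92 (edgeR adjusted p = 0.138) and −0.03 (edgeR adjusted p = 0.985). The difference from the control group also passed without a filter on low counts (log2 −1.73, edgeR adjusted p = 0.00153) and with a replicate block (log2 −1.98, edgeR adjusted p = 0.0495). The endotoxemic group differed from the control group by −0.9 (SE 0.71, edgeR adjusted p = 0.332). The gene Gm38058 lies on the opposite strand over Fzd5, and a strand setting of the counting is not given in the sources used here.

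Fzd1, Fzd6 and Fzd7 were low in all groups and did not pass the threshold in any of the 3 comparisons. Fzd1, which can pass on both β-catenin-dependent and other Wnt signals, was at 3.53 and 4.44 CPM in the control, 2.62 and 2.24 in the endotoxemic and 4.45 and 2.3 in the LGK974 libraries. Its difference between the endotoxemic and control groups was −0.72 on the log2 scale, with an interval from −1.81 to 0.38. Fzd6, known for its part in planar cell polarity, was at 3.06 and 3.07 CPM in the control, 2.84 and 4.8 in the endotoxemic and 3.47 and 2.57 in the LGK974 libraries. The gene Gm26704 lies over Fzd6 on the opposite strand. The control libraries lay within the range of the endotoxemic libraries, and the difference of 0.32 had an interval from −0.72 to 1.35. Fzd7, a close relative of Fzd1, was at 2.23 and 3.66 CPM in the control, 2.95 and 2.35 in the endotoxemic and 1.51 and 2.17 in the LGK974 libraries. Its difference between the endotoxemic and control groups was −0.16, with an interval from −1.32 to 0.99. Each of these 3 genes had 20 to 68 counts per library, and each interval reached past the size of the Lrp6 difference in at least 1 direction.

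The Frizzled family as a whole was summed over its 10 genes, including Fzd2, Fzd3, Fzd9 and Fzd10, which had at most 9 counts in any library. The sum was 416 and 694 counts in the control, 160 and 186 in the endotoxemic and 304 and 266 in the LGK974 libraries, or 38.6 and 45.4, 17.5 and 19.8, and 22.9 and 18.0 CPM. Without Fzd8 it was 24.0 and 24.8 CPM in the control, 15.7 and 17.7 in the endotoxemic and 20.9 and 16.6 in the LGK974 libraries. Fzd8 gave 37.7% of the Frizzled counts in control library 1 (95% exact binomial interval 33.1 to 42.6) and 45.4% in library 2 (41.6 to 49.2). Its share was 10% (5.82 to 15.7) and 10.8% (6.69 to 16.1) after LPS alone and 8.88% (5.93 to 12.7) and 7.52% (4.65 to 11.4) in the LGK974 libraries. The share of Fzd4 was 13.5% and 18.2% in the control, 20.6% and 19.4% in the endotoxemic and 28.9% and 47.4% in the LGK974 libraries, where it was the largest. The share of Fzd6 was 7.93% and 6.77% in the control, 16.2% and 24.2% in the endotoxemic and 15.1% and 14.3% in the LGK974 libraries. The intervals cover counting error only, and a share rises where another gene falls, so Fzd6 gained share while its level did not pass the test.

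**Figure D3:**
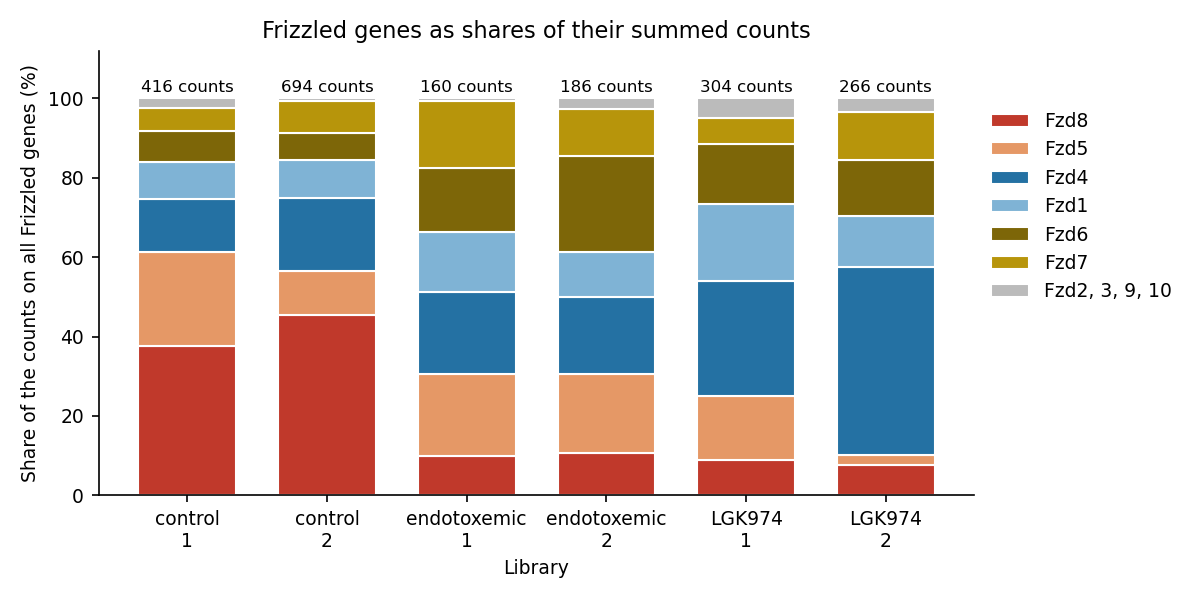
Share of each Frizzled gene in the summed counts of the 10 Frizzled genes (vertical axis, percent) in the 6 distinct libraries, with the summed count above each bar. Fzd8 takes 37.7% and 45.4% in the control libraries and 7.52% to 10.8% in the other 4, and Fzd4 takes 47.4% in LGK974 library 2.

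The co-receptors Lrp5 and Lrp6 both fell in the endotoxemic livers. Lrp6, at 134446476 to 134566965 on chromosome 6 (minus strand), is the co-receptor that most cells use for β-catenin signaling, and it had 435 and 774 counts in the control, 210 and 195 in the endotoxemic and 289 and 452 in the LGK974 libraries. In CPM these were 40.4 and 50.6, 22.9 and 20.8, and 21.8 and 30.6, so that the endotoxemic and LGK974 libraries overlapped and both lay below the control libraries. The endotoxemic group was 2.08-fold lower than the control group (log2 −1.06, SE 0.24, edgeR adjusted p = 0.00678) and the LGK974 group 1.74-fold lower (log2 −0.8, SE 0.24, edgeR adjusted p = 0.0288). The first call was lost without endotoxemic replicate 2 (log2 −0.99, edgeR adjusted p = 0.0652) and without control replicate 2 (log2 −0.88, edgeR adjusted p = 0.0686). The second was lost in 6 of 16 alternative settings, among them the fit to only these 2 groups (edgeR adjusted p = 0.0576) and every leave-one-out except that of LGK974 replicate 2 (edgeR adjusted p from 0.0584 to 0.203 where lost). Its log2 fold change was −0.76 to −0.95 without either endotoxemic library or control replicate 1, and it was −0.62 without control replicate 2 and −0.57 without LGK974 replicate 1.

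Lrp5, at 3584828 to 3686564 on chromosome 19 (minus strand), shares this role and is best known for its control of bone mass. Its counts were 129 and 156 in the control, 46 and 31 in the endotoxemic and 54 and 73 in the LGK974 libraries, or 12 and 10.2, 5.02 and 3.3, and 4.08 and 4.94 CPM. The endotoxemic group was 2.66-fold lower than the control group (log2 −1.41, SE 0.35, edgeR adjusted p = 0.0101), and the LGK974 group 2.45-fold lower (log2 −1.29, SE 0.34, edgeR adjusted p = 0.0168). The first call was lost without endotoxemic replicate 2 (log2 −1.14, edgeR adjusted p = 0.0905) and without control replicate 1 (log2 −1.29, edgeR adjusted p = 0.0682). The second was lost without control replicate 1 (log2 −1.18, edgeR adjusted p = 0.109) and without control replicate 2 (log2 −1.4, edgeR adjusted p = 0.059). Against the endotoxemic group the LGK974 group differed by 0.12 for Lrp5 (interval −0.68 to 0.92) and by 0.26 for Lrp6 (interval −0.28 to 0.81), neither past the threshold. Lrp6 gave 77.1% and 83.2% of the counts of the pair in the control, 82.0% and 86.3% in the endotoxemic and 84.3% and 86.1% in the LGK974 libraries, so the pair kept its order in every library.

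Ryk, at 102834917 to 102908305 on chromosome 9 (plus strand), is a receptor with a WIF-type Wnt-binding domain and a kinase domain without activity, known for guiding axons. A further transcript, Gm47427, is annotated over it on the same strand and could share its reads. It had 1028 and 1010 counts in the control, 374 and 246 in the endotoxemic and 687 and 914 in the LGK974 libraries, or 95.4 and 66.0, 40.8 and 26.2, and 51.9 and 61.9 CPM. The LGK974 libraries lay between the other groups without overlap with either. Ryk was 2.41-fold lower in the endotoxemic than in the control group (log2 −1.27, SE 0.28, interval −1.89 to −0.65, edgeR adjusted p = 0.00541). This call was lost without endotoxemic replicate 2 (log2 −0.98, edgeR adjusted p = 0.0616) and without control replicate 1 (log2 −0.98, edgeR adjusted p = 0.0592). The LGK974 group differed from the endotoxemic group by 0.76 (SE 0.27, interval 0.15 to 1.38, unadjusted p = 0.0208, edgeR adjusted p = 0.137) and from the control group by −0.5 (SE 0.27, edgeR adjusted p = 0.179), neither past the threshold. The former passed without a filter on low counts (edgeR adjusted p = 0.0277), without LGK974 replicate 1 (log2 0.89, edgeR adjusted p = 0.0357) and when the identical libraries were counted separately (edgeR adjusted p = 0.044), within an adjusted p of 0.0277 to 0.552 over its alternatives.

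Ror1, at 100095791 to 100444765 on chromosome 4 (plus strand), is a receptor for Wnt5a that is abundant in embryos and scarce in most adult tissues. It had 0 and 2 counts in the control, 12 and 21 in the endotoxemic and 19 and 33 in the LGK974 libraries. Every library of the latter groups lay above both control libraries, and the 2 groups overlapped each other at 1.31 and 2.24 CPM and 1.43 and 2.23 CPM. Per total count the endotoxemic libraries together had 23.7 times the control signal (33 against 2 counts, 95% counting interval 6.06 to 204) and the LGK974 libraries 24.3 times (52 against 2, interval 6.39 to 206). The difference passed edgeR's test in both comparisons (adjusted p = 0.00696 for the endotoxemic and 0.00793 for the LGK974 group), with fitted log2 fold changes of 4.39 (SE 1.0) and 4.44 (SE 0.99) that depend on the prior count. Ror1 passed the filter on low counts only through the groups in which it was high, and with at least 10 counts required in every library it was not tested. The former call was lost without endotoxemic replicate 2 (fitted log2 3.97, edgeR adjusted p = 0.0557) and the latter without control replicate 1 (fitted log2 3.71, edgeR adjusted p = 0.0566). Without control replicate 2, which held both control counts, the fitted values became 7.36 and 7.41, and both calls were kept. Between the LGK974 and endotoxemic groups the ratio was 1.02 (interval 0.65 to 1.64). Short transcripts annotated within Ror1, Gm12701 on the same strand and Gm12706 on the opposite strand, could share its reads.

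The second comparison asked whether the receptor genes of the LGK974 group differed from those of the endotoxemic group. None of the 10 genes passed the adjusted threshold in edgeR, beside 2.80% of all tested genes called higher and 2.82% called lower, and DESeq2 called 0. At an unadjusted p under 0.05 there were 2 of 10, Fzd4 and Ryk, both higher in the LGK974 group, beside 2911 of all 12701 tested genes. The median log2 fold change of the 10 genes was 0.08, and that of all tested genes was 0.03. A p that misses the threshold does not show that the groups were alike, and the intervals of the 10 genes reached from −2.55 for Fzd5 to 1.86 for Fzd4. Without LGK974 replicate 1 the number called was 2, Fzd5 and Ryk.

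The third comparison set the LGK974 group against the control group. Ror1 rose and Fzd8, Lrp5 and Lrp6 fell, which is 1 of 10 higher and 3 of 10 lower beside 16.4% and 17.7% of all tested genes. At an unadjusted p under 0.05 there were 5 of 10, the fifth being Fzd5, beside 5668 of all 12701 tested genes. The median log2 fold change was −0.59, and that of all tested genes was 0.02. The number called was 1 without control replicate 1 and 2 without control replicate 2. In the LGK974 livers Fzd4 came next in level after Ryk and Lrp6, at 7.58 ± 1.33 CPM (SD, n = 2), and Fzd8, which held that place in the control livers, was last at 1.7 ± 0.484 CPM, although each neighbouring pair from Lrp5 downwards overlapped.

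Other genes of the pathway were described by lists in order of their roles. Genes that set how long receptors stay on the membrane were lower in the endotoxemic livers. All 5 tested of 9 fell in the endotoxemic compared with the control livers by edgeR, beside 23.0% of all tested genes, with a median log2 fold change of −2.32. Lgr5 passed the filter on low counts only through the control libraries, so that it could enter this count only as a fall. Rnf43, a ubiquitin ligase that removes Frizzled and Lrp proteins from the surface, was at 7.98 and 6.99 CPM in the control, 0.873 and 0.533 in the endotoxemic and 1.59 and 1.42 in the LGK974 libraries (log2 −3.39, SE 0.5, edgeR adjusted p = 0.000657 for endotoxemic against control). Znrf3, its partner, fell by 1.74 on the log2 scale (SE 0.41, edgeR adjusted p = 0.00849). Lgr4 and Lgr5, receptors of the R-spondins that hold these ligases back, fell by 2.32 (SE 0.25, adjusted p = 9.54e-05 by edgeR) and by 3.9 on that scale (SE 0.79, adjusted p = 0.00372 by edgeR), and Rspo3 fell by 1.49 (SE 0.34, edgeR adjusted p = 0.00737). Both the ligases and the genes that hold them back were thus lower. The LGK974 group differed from the endotoxemic group for 0 of these 5 by edgeR and by DESeq2, with 1 at an unadjusted p under 0.05, and 4 of them were lower than in the control group, beside 17.7% of all tested genes.

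Among 16 other receptors and receptor partners 8 were tested, and in the endotoxemic livers 12.5% of these were called higher and 37.5% lower, beside 20.4% and 23.0% of all tested genes. Of the 8, Smo (called lower) and Adgra2 (not called) had rows whose neighbours were not their genomic neighbours, and their values are not given. Smo also passed the filter on low counts only through the control libraries, so that it could enter the share called lower only as a fall. Tspan12, which helps Fzd4 to pass on Norrin signals, was at 70.9 and 88.6 CPM in the control, 24.8 and 27.4 in the endotoxemic and 24.0 and 34.5 in the LGK974 libraries and fell by 1.61 on the log2 scale (SE 0.24, edgeR adjusted p = 0.000703). Lrp4, a relative of Lrp5 and Lrp6 known as the agrin receptor, fell by 2.7 (SE 0.66, edgeR adjusted p = 0.00999). Mesdc1 rose by 1.89 (SE 0.36, edgeR adjusted p = 0.0026) and encodes an actin-binding protein, not the Lrp chaperone, which is encoded by Mesdc2 (log2 0.31, SE 0.28, edgeR adjusted p = 0.392).

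Of 20 extracellular antagonists 5 were tested. Notum, an enzyme that removes the lipid from Wnt proteins, fell from 36.2 and 39.0 CPM in the control to 0.436 and 0.64 in the endotoxemic libraries (log2 −6.1, SE 0.35, edgeR adjusted p = 3.77e-06) and was at 0.604 and 0.609 in the LGK974 libraries. Frzb, a decoy with the Wnt-binding domain of the Frizzleds, rose from 1.67 and 2.03 to 5.13 and 8.42 CPM (log2 1.86, SE 0.43, edgeR adjusted p = 0.00711). Among 21 genes for Wnt ligands and their secretion 6 were tested, and 0 rose and 3 fell in the endotoxemic livers, beside 20.4% and 23.0% of all tested genes. Of the 3, Wnt2 and Wnt4 passed the filter on low counts only through the control libraries and could only be called lower. Wnt2, a ligand of the liver endothelium, was at 8.26 and 7.91 CPM in the control and 0.764 and 0.213 in the endotoxemic libraries (edgeR adjusted p = 0.00507), and Wnt4 at 2.6 and 3.99 and at 0.327 and 0.426 CPM (edgeR adjusted p = 0.00686). Porcn, which encodes the target of LGK974, fell by 1.46 (SE 0.52, edgeR adjusted p = 0.0464), and DESeq2 called 2 genes of this list lower. In the LGK974 compared with the endotoxemic livers edgeR called 1 gene of these pathway lists, Wnt5b, at 3.6 and 4.9 CPM in the endotoxemic and 14.7 and 14.0 in the LGK974 libraries (log2 1.75, SE 0.32, edgeR adjusted p = 0.0189). DESeq2 called 1 of 6 tested genes of the ligand list and 1 of 27 signal transducers higher, and of 15 liver Wnt targets it called 1 higher and 2 lower. Over all 12701 tested genes it called 604 higher and 627 lower.

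Behind the receptors, 27 of 32 signal transducers were tested, of which 1 rose and 6 fell in the endotoxemic livers. These were 3.7% and 22.2%, beside 20.4% and 23.0% of all tested genes, so the share that fell was near that of all genes. The median log2 fold change was 0.02. Of 17 genes of the liver that are known to need β-catenin signaling, 15 were tested and 13 fell, with a median of −2.6. In the LGK974 compared with the control group 14 were lower, beside 17.7% of all tested genes. Axin2, Notum and Lgr5 were tested only because of their control libraries, as were Wnt2 and Wnt4 among the ligands, and could appear only as falls in these counts. Axin2, which belongs to both lists, was at 4.46 and 3.92 CPM in the control, 0.218 and 0.213 in the endotoxemic and 0.227 and 0 in the LGK974 libraries. Axin2, Lgr5, Rnf43, Znrf3 and Notum stand in 2 lists each, so the lists were not independent. The share called lower, beside the 23.0% of all genes, thus differed from list to list.

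**Figure D4:**
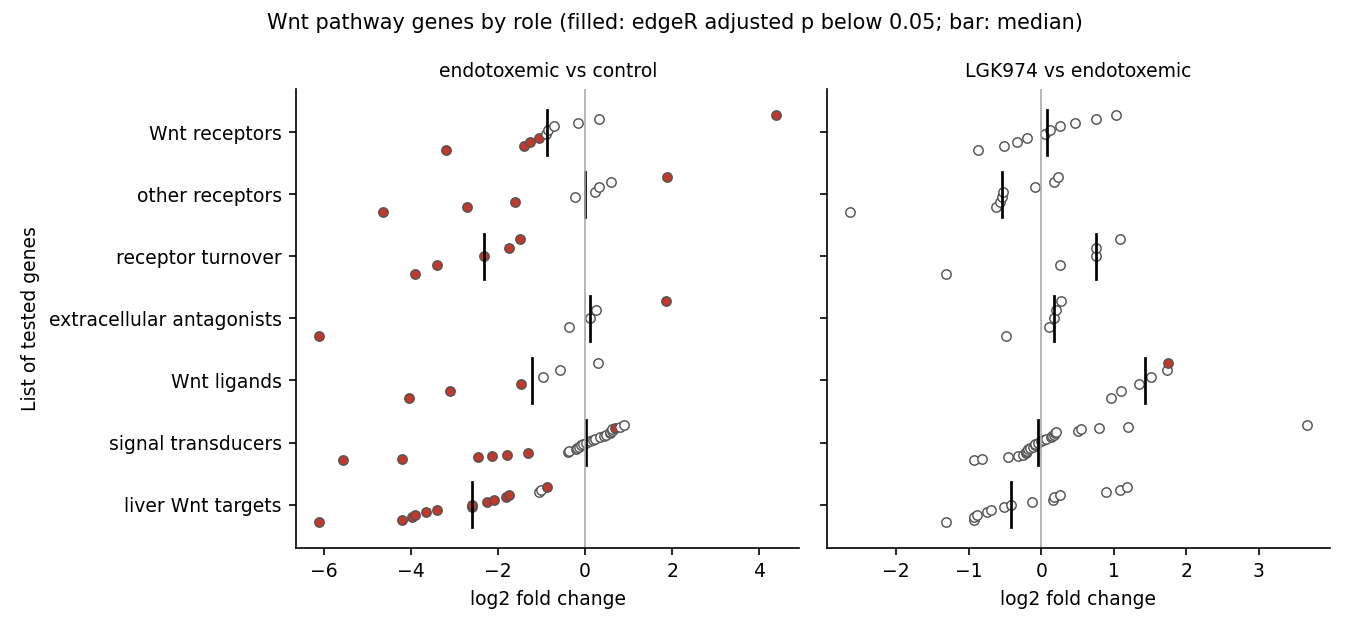
Log2 fold change (horizontal axis) of each tested gene of the receptor list and of 6 other Wnt pathway lists in 2 comparisons, filled where the edgeR adjusted p was below 0.05, with a bar at the list's median. In endotoxemic against control livers all 5 receptor turnover genes and 13 of 15 liver Wnt targets lie below 0 and are filled, beside 23.0% of all tested genes. Of the 10 receptor genes 5 are filled, and in LGK974 against endotoxemic livers Wnt5b is the 1 filled point.

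Markers of other cell types moved with the groups, counting only marker genes on rows in genomic order. The summed level of 7 of 8 hepatocyte markers was 105000 and 72500 CPM in the control, 47200 and 30400 in the endotoxemic and 35300 and 32500 in the LGK974 libraries. The sums of sinusoidal endothelial (366 to 379, 460 to 463 and 480 to 585 CPM, 9 genes), Kupffer cell (238 to 248, 229 to 230 and 140 to 177 CPM, 8 genes) and stellate cell markers (447 to 455, 544 to 592 and 467 to 561 CPM, 9 genes) hid changes of single genes in both directions. Beside 20.4% of all tested genes called higher and 23.0% called lower, the endotoxemic livers had 1 of 9, 1 of 8 and 1 of 9 of these markers higher and 5, 4 and 5 lower, while 0 of 7 hepatocyte markers were higher and 4 lower. Sums of neutrophil markers (4 genes, of which 4 were called higher) went from 1.76 and 2.35 CPM in the control to 85.4 and 101 in the endotoxemic and 60.1 and 57.9 in the LGK974 libraries. At least Ngp (log2 11.48) passed the filter on low counts only through the other groups and could only be called higher. The sums of monocyte markers (2 genes, both called higher) went from 11.7 and 12.7 to 191 and 160 and to 140 and 126 CPM. Cholangiocyte markers (8 genes) summed to 34.7 and 33.8, 86.4 and 93.1, and 42.7 and 96.1 CPM, a sum that also hid changes in both directions. Of 6 tested, Sox9 was called higher and Krt19 lower in the endotoxemic than in the control livers, and their median log2 fold change was −1.43. T and NK cell markers (9 genes, Ncr1 at 0) summed to 7.05 and 5.16, 9.49 and 12.9, and 4.45 and 3.52 CPM, and of 4 tested Gzmb and Gzma were called higher in the endotoxemic than in the control livers. B cell markers (4 genes) summed to 4.36 and 2.22, 2.07 and 3.73, and 0.0755 and 0.677 CPM. The part of cell composition in the receptor differences was not tested.

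For each receptor gene called in the endotoxemic against the control livers, the genes with the most similar level over the 6 distinct libraries were listed among 12283 genes on rows in order, by Pearson's r of log2(CPM + 0.5). They were Kynu and Tymp for Fzd8 (both r = 0.9986), Sirt7 (0.9995) and 2900008C10Rik (0.9979) for Lrp5, Nup85 (0.9976) and Glb1 (0.9939) for Lrp6, Selm (0.9974) and Gm867 (0.9958) for Ryk, and Dok3 (0.9979) and Pole4 (0.9955) for Ror1. With 6 libraries in 3 groups, sharing the same depth and group differences, values this high are the highest among 12283 and serve as a description only. No gene was named as most similar for more than 1 receptor.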

How the data were processed

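RNA from 8 mouse liver samples was sequenced with a 3′-end method (QuantSeq), and the authors deposited whole-number read counts per gene symbol, not normalized. The submitters' processing notes name Bowtie2, edgeR and the mouse build mm10, and the counting program is not given in the sources used here. Groups came from the labelled agent, which for LGK974 names no LPS. Identical libraries were counted once, leaving 6. Counts were filtered with filterByExpr, normalized by TMM and fitted in 1 quasi-likelihood model (edgeR 4.0.16, R 4.3.3) over the 3 groups, with Benjamini-Hochberg adjustment over 12701 genes at 0.05. SEs and intervals follow from that test, and DESeq2 1.42.0 was an alternative. The model was tested on simulated data. Total counts of 9142116 to 15222439 and 2 libraries per group limit precision. Row order was compared with RefSeq positions on GRCm38.p6, and a row was out of order when over 2000000 bp from its place. Coordinates are from GENCODE on GRCm38.

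The receptor genes and the lists were chosen with earlier results of these data known. Named genes were all 10 receptors, up to 2 rises and 2 falls per list and comparison, the 2 most similar genes of each called receptor, and sex-linked checks. Tspan12, Mesdc2, Znrf3, Lgr4, Rspo3, Porcn, Daam1, Tcf7, Tcf7l1, Tcf7l2, Lef1, Prickle1, Vangl1 and Vangl2 were named after their values were seen.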

Additional observations from a re-analysis of the deposited data

How the results depend on the processing

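Over 16 alternative settings, fixed with earlier results of these data known, Fzd8 was the only gene called in both comparisons with the control group under every one. The number of receptor genes called was 5 in endotoxemic against control livers and lay between 1 (without endotoxemic replicate 2) and 5 when each library was left out in turn, with 3 without control replicate 1. For LGK974 against endotoxemic livers it was 0, and it became 1 without a filter on low counts, 2 with the identical libraries counted separately, and 0 to 2 on leaving out a library. For LGK974 against control livers it was 4, and 1 to 4 on leaving out a library. With the replicate block the numbers were 5, 0 and 5, the added call being Fzd5. Same-numbered libraries correlated at 0.18, 0.0629 and −0.0129 in the 3 comparisons, the labels do not say what the numbers share, and the unpaired fit was kept.

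Over all genes, the calls in LGK974 against endotoxemic livers depended most on the setting. They were 356 higher and 358 lower, against 1711 and 1548 with identical libraries counted separately, 881 and 824 without a filter, 604 and 627 with DESeq2, and 107 and 162 when only these groups were fitted. On leaving out a library they were 27 and 58 without endotoxemic replicate 1, 23 and 26 without endotoxemic replicate 2, 126 and 173 without control replicate 1, 124 and 168 without control replicate 2, 1175 and 1067 without LGK974 replicate 1, and 621 and 623 without LGK974 replicate 2. Also on leaving out a library, the higher calls lay between 1517 and 3196 in endotoxemic against control livers (2595 with all libraries) and between 1041 and 2608 in LGK974 against control livers (2081), both lowest without control replicate 1, and with identical libraries counted separately they were 3708 and 2841. The cause of these shifts was not tested. In endotoxemic against control livers, the fit to only these groups still called 5 receptors.

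Directions changed only for values that were not called either way, in log2 units. On leaving out a library, endotoxemic against control ranged from −0.11 to 0.70 for Fzd6 and −0.47 to 0.25 for Fzd7. LGK974 against endotoxemic ranged from −0.075 to 0.87 for Fzd1, −0.69 to 0.089 for Fzd6, −0.51 to 0.070 for Fzd8, −0.15 to 0.42 for Lrp5, −0.0026 to 0.49 for Lrp6 and −0.31 to 0.49 for Ror1. LGK974 against control ranged from −0.79 to 0.16 for Fzd1, −0.12 to 0.55 for Fzd4 and −0.25 to 0.18 for Fzd6, and for Fzd6 it was 0.013 without a filter and 0.011 when only these groups were fitted. Where a library was left out, its group's remaining library was assumed to vary like the others. Fzd1, Fzd5, Fzd6, Fzd7 and Ror1, with at most 98 counts in any library, gave the widest intervals in endotoxemic against control livers.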

Other observations

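Some of the signal transducers are known for planar cell polarity. Celsr1, an adhesion receptor at cell contacts, had 97 and 109 counts in the control, 3 and 0 in the endotoxemic and 17 and 45 in the LGK974 libraries, and it fell in the endotoxemic livers (adjusted p = 0.000865 by edgeR). Between the LGK974 and endotoxemic livers the edgeR adjusted p of Celsr1 was 0.051, just short of the threshold. Daam1, which links Dishevelled to actin, was at 45.7 and 44.6 CPM in the control, 12.2 and 14.1 in the endotoxemic and 10.2 and 17.2 in the LGK974 libraries (endotoxemic against control log2 −1.78, SE 0.28, edgeR adjusted p = 0.000932). Vangl1, a membrane partner of the polarity complex, was at 9.56 and 9.08, 24.4 and 10.3, and 23.8 and 14.9 CPM (log2 0.9, SE 0.41, edgeR adjusted p = 0.104) and did not pass, nor did Prickle1 (log2 −0.2, SE 0.51, edgeR adjusted p = 0.769), and Vangl2 was too low to be tested.

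Of the 4 TCF and LEF factors, which act with β-catenin in the nucleus, Tcf7 and Lef1 had at most 10 counts in any library and were not tested. Tcf7l2 was at 61.0 and 65.7 CPM in the control, 25.3 and 25.4 in the endotoxemic and 29.6 and 26.1 in the LGK974 libraries (endotoxemic against control log2 −1.32, SE 0.2, edgeR adjusted p = 0.000657). Tcf7l1 was at 19.2 and 20.5, 3.06 and 4.16, and 5.06 and 7.51 CPM and also fell. Csnk1a1, a kinase that marks β-catenin for destruction, was the 1 transducer that rose (log2 0.68, SE 0.2, edgeR adjusted p = 0.0242).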
